A study of Mus musculus with 36 samples.

Results

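Tgm2, Chil1, Ces1f and Fmo2 are 4 mouse genes that were proposed as separating the response of Bhas 42 cells to the phorbol ester TPA from their response to silica. They were picked from these same arrays by their change after TPA against DMSO and after each silica against its own water, over all 9 groups of samples. Their levels and changes are therefore a description with no test, and the choice fixes much of their direction. The 4 genes were found on 5 probes, 1 each for Tgm2, Chil1 and Ces1f and 2 for Fmo2. All 5 probes passed the filter on dim signal, out of 32492 genes tested on the array. The label did not hold for Fmo2. Its brighter probe was lower after TPA, and lower as well after the amorphous silica NM-203 at 5 µg/cm² and the crystalline silica Min-U-Sil 5. The part of the pattern that separates TPA from these 2 silicas was therefore carried by the other 3 genes.

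Bhas 42 is a clonal line of mouse fibroblasts, made from BALB/c 3T3 cells by introducing the viral Ha-ras oncogene, and it is used to test whether an agent promotes the outgrowth of transformed foci. The study asked what silica materials do to gene expression in these cells, with TPA (12-O-tetradecanoylphorbol-13-acetate, a tumour promoter that activates protein kinase C) set beside them. Treatment began on day 4 after seeding, and RNA was taken on day 6 after 48 h of exposure. The amorphous silica NM-203 was given at 1, 2 and 5 µg/cm² and diatomaceous earth (DE) at 5 µg/cm², and these 4 groups share 1 water control (2%). The crystalline silica Min-U-Sil 5 was given at 20 µg/cm² and has a water control of its own. TPA was given at 0.05 µg/ml and is compared with its solvent DMSO (0.1%). Each of the 9 groups held 4 samples, 1 array each, 36 in all. Every sample, controls included, carries the ras oncogene, and no material was given to cells without it. The study names 4 independent experiments, and which array came from which is not labelled, so the errors and p-values below measure only the spread between these samples.

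Transglutaminase 2, made from Tgm2, is a calcium-dependent enzyme that crosslinks proteins through glutamine and lysine residues, and outside the cell it binds fibronectin and integrins; its gene is a classical target of retinoic acid. Chil1 encodes a secreted chitinase-like lectin, known in human as YKL-40, which binds chitin and heparin without cutting chitin and is released by macrophages, chondrocytes and fibroblasts in inflamed or remodelling tissue. Ces1f encodes a carboxylesterase of the endoplasmic reticulum, one of a family that hydrolyses ester bonds in lipids, drugs and other foreign compounds. Fmo2 encodes a flavin-containing monooxygenase, which oxygenates nitrogen and sulphur atoms in drugs and other foreign compounds and is best known from lung.

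The promoter windows of Chil1 and Fmo2, which changed in opposite directions after TPA, are shown for reference. RefSeq's table for the build GRCm38.p6 held 1 start for Chil1 and 2 for Fmo2, each as 250 bases before and 50 bases after the start; Tgm2 and Ces1f were not matched in it. The Chil1 window lies on the plus strand at chr1:134181906-134182205, and the window of the first Fmo2 start lies on the minus strand at chr1:162898709-162899008. Both are printed 5′ to 3′ in the direction of the gene, and capitals mark the motif matches described below them.
Chil1: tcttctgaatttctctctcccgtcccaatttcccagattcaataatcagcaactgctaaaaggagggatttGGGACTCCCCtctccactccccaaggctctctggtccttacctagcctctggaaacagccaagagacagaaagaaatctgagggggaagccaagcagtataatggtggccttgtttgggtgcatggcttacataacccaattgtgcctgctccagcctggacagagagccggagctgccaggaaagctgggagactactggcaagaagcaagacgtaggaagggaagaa
Fmo2: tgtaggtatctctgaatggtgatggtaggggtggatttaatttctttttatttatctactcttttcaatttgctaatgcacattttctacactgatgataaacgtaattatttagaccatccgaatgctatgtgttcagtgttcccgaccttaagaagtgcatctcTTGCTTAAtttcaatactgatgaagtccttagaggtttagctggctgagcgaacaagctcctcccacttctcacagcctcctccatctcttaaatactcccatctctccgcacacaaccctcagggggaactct

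The windows were searched on both strands for the motifs AP-1 (TGANTCA), CRE (TGACGTCA), STAT (TTCNNNGAA), C/EBP (TTGCNNAA), GC box (GGGCGG), the letters TATAAA of the TATA box, the antioxidant response element (TGACNNNGC) and NF-kB. The Chil1 window held 1 match to the NF-kB motif at position -179 and none to the others. The first Fmo2 window held 1 match to the C/EBP motif at position -84, and the second, at chr1:162898444-162898743, held another C/EBP match at position -69 and a STAT match at position 13. An NF-kB match was present in 8.46% of 32851 promoter windows of 300 bases, a C/EBP match in 10.8% and a STAT match in 8.3%. A match gives only the letters in the window, and the arrays measured no binding.

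Levels are log2 of the spot intensity after background subtraction, relative to the 75th percentile of each array. They can be compared between samples for one probe, not between probes. A change is the difference of group means, given with its standard error (SE) from a limma fit over all 36 arrays, whose groups share one estimate of the spread. Across the arrays the 75th percentile lay between 531 and 1542 intensity units, between 55.1% and 76.2% of probes were well above background, and 0 spots were saturated. The number of arrays limits the precision. RNA came from whole cultures, so fewer cells making a transcript and less transcript per cell cannot be told apart. The 6 arrays of slide 4 (3 of Min-U-Sil 5, 2 of its water control and replicate 2 of NM-203 at 2 µg/cm²) included the arrays with the most probes well above background, up to 76.2% against at most 70.3% on the other slides. The Min-U-Sil 5 changes are therefore also given within slides.

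Tgm2 was higher after TPA than after DMSO and lower after the high dose of NM-203 and after Min-U-Sil 5 than in water. In TPA the 4 arrays gave levels of -2.70, -2.56, -2.79 and -2.59, and in DMSO -3.74, -4.05, -3.90 and -3.53. All 4 TPA arrays lay above every DMSO array, and above every other array of the series. The change was 1.14 ± 0.26 (SE, n = 4 per group), which is 2.21-fold higher.

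In NM-203 at 5 µg/cm² Tgm2 gave -5.86, -5.02, -7.15 and -5.36, against -3.28, -3.43, -3.20 and -3.64 in water. Every treated array was below every water array, but only 1 of the 4, replicate 2, was well above background, so the lower levels are poorly measured. The change was -2.46 ± 0.26 (SE, n = 4 per group), 5.50-fold lower. In Min-U-Sil 5 the levels were -5.42, -5.11, -5.56 and -5.13, all well above background, against -3.54, -3.67, -3.68 and -3.40 in its water control. These groups did not overlap either, and the change was -1.74 ± 0.26 (SE, n = 4 per group), 3.33-fold lower.

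The lower doses of NM-203 and DE left Tgm2 near its water level. NM-203 at 1 µg/cm² gave -3.63, -3.73, -3.84 and -3.48, and at 2 µg/cm² -3.61, -4.34, -4.19 and -3.42, with the arrays of both doses overlapping those of water. DE gave -3.87, -3.49, -3.75 and -3.86, which overlapped water as well. Replicates 2 and 3 of the middle dose were the lowest of these 12 treated arrays. The changes were -0.28, -0.51 and -0.36, each ± 0.26 (SE, n = 4 per group).

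Chil1 was likewise higher after TPA and lower after NM-203 and Min-U-Sil 5, but not after DE, and was well above background on all 36 arrays. TPA gave -0.53, -0.56, -1.01 and -0.74, and DMSO -2.16, -2.11, -2.30 and -2.09. The lowest TPA array was more than 1 log2 unit above the highest DMSO array. The change was 1.45 ± 0.23 (SE, n = 4 per group), 2.74-fold higher and the largest change after TPA among the 3 genes that were higher.

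Chil1 was lower at every dose of NM-203. Water gave -1.93, -1.65, -2.31 and -2.14, and 1 µg/cm² gave -2.77, -2.45, -2.32 and -2.43, a change of -0.49 ± 0.23 in which the nearest arrays of the groups almost touched. At 2 µg/cm² the levels were -3.35, -3.73, -2.99 and -2.38, a change of -1.11 ± 0.23, and at 5 µg/cm² they were -3.93, -3.75, -3.28 and -3.73, a change of -1.67 ± 0.23 or 3.17-fold lower (SE, n = 4 per group). On this scale none of the 3 doses overlapped water, while neighbouring doses overlapped each other. In the authors' deposited values the lowest water array was at -0.014. The highest array was at 0.0066 for 1 µg/cm² and at -0.0066 for 2 µg/cm², so both doses overlapped water there.

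After Min-U-Sil 5 the Chil1 levels were -4.11, -3.60, -3.51 and -3.81, against -2.12, -2.22, -2.48 and -1.88 in its own water, and they overlapped those of the high dose of NM-203. Treated and control groups were apart, with a change of -1.58 ± 0.23 (SE, n = 4 per group), 2.99-fold lower. After DE the Chil1 levels were instead -1.80, -1.59, -0.59 and -1.62, a change of 0.61 ± 0.23. Replicate 3 alone reached the level of the TPA arrays, and replicate 1 lay inside the water range, so DE and water overlapped.

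Ces1f was 1.80-fold higher after TPA, the smallest change of the 3. The TPA arrays gave -2.02, -1.92, -1.45 and -1.46 and the DMSO arrays -2.85, -2.73, -2.52 and -2.15, so the groups were apart by a narrow margin at replicate 1 of TPA and replicate 4 of DMSO. The change was 0.85 ± 0.26 (SE, n = 4 per group).

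After NM-203 at 5 µg/cm² Ces1f gave -5.01, -5.74, -3.98 and -4.10, against -2.36, -1.83, -2.54 and -2.48 in water. Replicates 3 and 4 were well above background and the lower pair was not, and all 4 lay below every other array of the series. The change was -2.41 ± 0.26 (SE, n = 4 per group), 5.30-fold lower. Min-U-Sil 5 gave -3.15, -3.41, -3.09 and -2.90 against -1.66, -1.73, -1.92 and -1.30 in its water, a change of -1.49 ± 0.26 (SE, n = 4 per group) or 2.80-fold lower, with the groups apart. The water control of Min-U-Sil 5 was itself 0.65 ± 0.26 above the other water control, and in level the Min-U-Sil 5 arrays overlapped those of NM-203 at 2 µg/cm².

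The low dose of NM-203 (-2.26, -2.89, -2.47 and -2.52), its middle dose (-2.79, -3.23, -2.53 and -2.45) and DE (-2.10, -1.95, -1.83 and -1.92) all overlapped water for Ces1f. The 2 NM-203 doses were on the lower side of water and DE was on the upper side. Their changes were -0.23, -0.45 and 0.35, each ± 0.26 (SE, n = 4 per group).

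Fmo2 was measured mainly by its brighter probe, A_51_P301998. After TPA the levels were -4.95, -5.21, -7.02 and -5.71, of which the first 2 were well above background, and DMSO gave -3.90, -3.87, -3.58 and -3.81. TPA therefore lay below DMSO on every array, the opposite side from the other 3 genes. The change was -1.93 ± 0.30 (SE, n = 4 per group), 3.81-fold lower.

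NM-203 at 5 µg/cm² left the brighter Fmo2 probe at -6.25, -7.43, -7.02 and -7.17, with no array well above background, against -3.14, -3.85, -3.51 and -3.75 in water. The group means were -6.97 and -3.56. Since the low level is only a bound, Fmo2 was at least 3.14-fold lower than in water, where the bound sets each dim array at the lowest signal well above background. Min-U-Sil 5 gave -4.69, -4.75, -5.47 and -4.74 against a tight -3.72, -3.67, -3.65 and -3.80 in its water, a change of -1.20 ± 0.30 (SE, n = 4 per group) or 2.30-fold lower. Both silicas were clear of their controls on every array.

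At 2 µg/cm² of NM-203 the brighter Fmo2 probe gave -4.44, -4.05, -4.78 and -4.41, below every water array, with a change of -0.86 ± 0.30 (SE, n = 4 per group). At 1 µg/cm² (-3.37, -3.70, -4.12 and -4.15) and after DE (-3.64, -3.37, -3.71 and -4.29) the arrays overlapped water. The changes there were -0.27 and -0.19, each ± 0.30. The order of Fmo2 means thus ran from the 3 controls, DE and the low dose of NM-203, which overlapped one another, through the middle dose, Min-U-Sil 5 and TPA to the high dose of NM-203.

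The dimmer Fmo2 probe, A_52_P273891, did not separate any treatment from its control. Its change after TPA was -0.82 ± 0.56, after NM-203 at 5 µg/cm² -0.58 ± 0.56 and after Min-U-Sil 5 -0.28 ± 0.56 (SE, n = 4 per group), and all groups overlapped their controls. The 4 highest values of the probe, -3.31, -3.42, -3.45 and -4.04, were all on slide 4, across NM-203 at 2 µg/cm², Min-U-Sil 5 and its water control. Over 36 arrays the probes correlated with r = 0.36, and over the 9 group means with r = 0.62, as a description of arrays that share slides and signal near background. The Fmo2 result rests on the brighter probe.

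**Figure D1:**
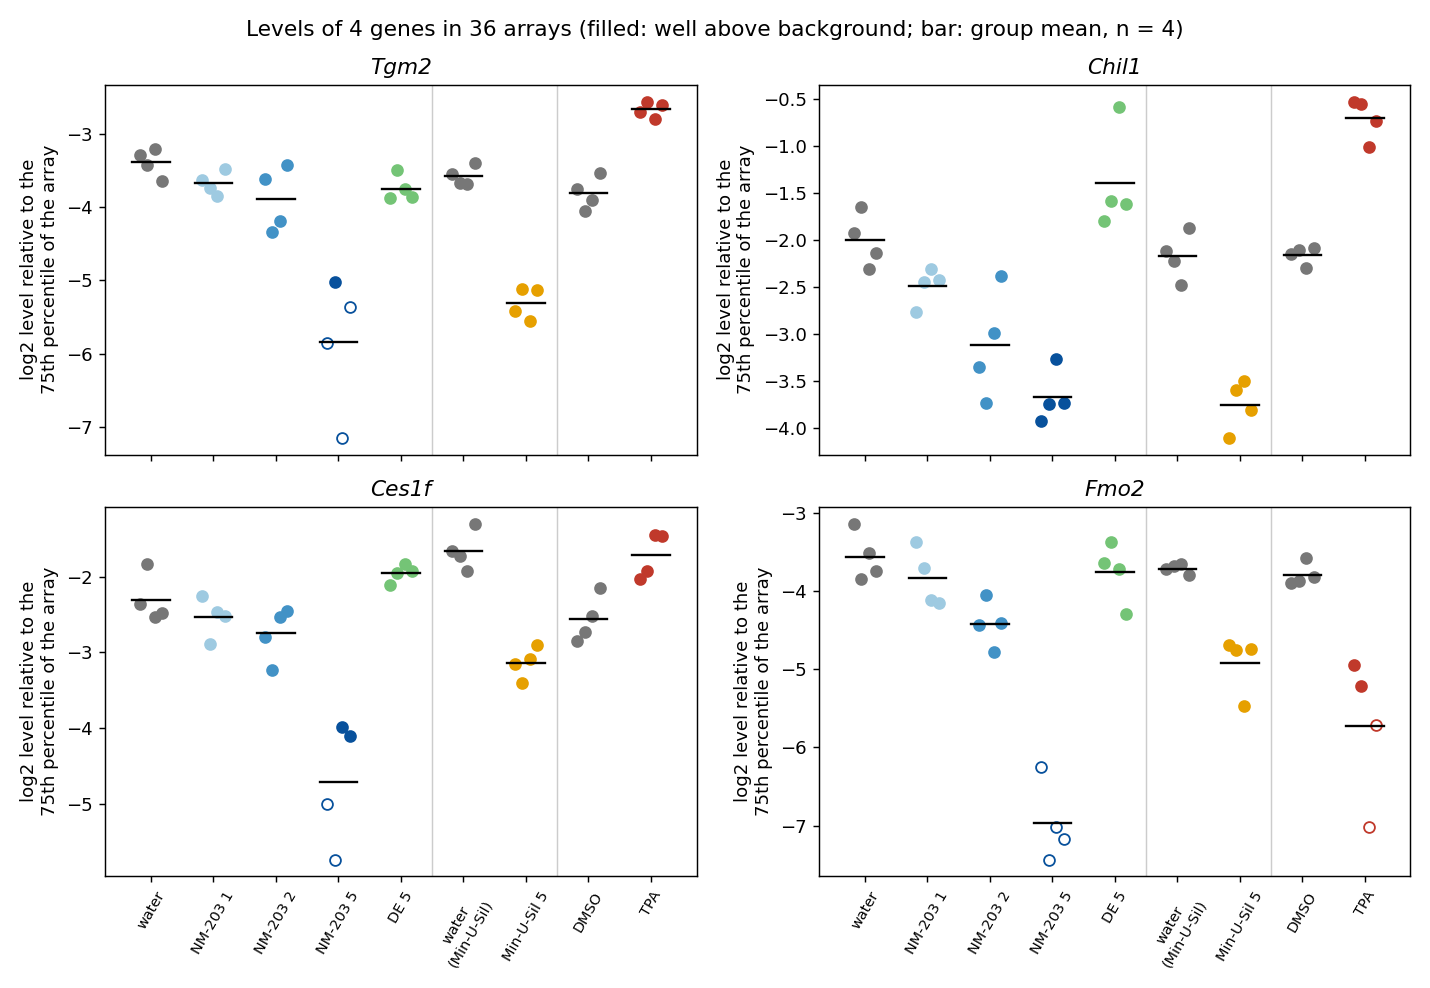
Level of each gene on each of 36 arrays, as log2 relative to the 75th percentile of the array (y axis), by group (x axis, doses in µg/cm²); points are arrays, filled where the probe was well above background, and bars are group means of 4 arrays. The TPA arrays are above the DMSO arrays for Tgm2, Chil1 and Ces1f and below them for Fmo2 (group means -5.72 and -3.79), while NM-203 at 5 µg/cm² and Min-U-Sil 5 are below water in all 4 panels.

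**Figure D2:**
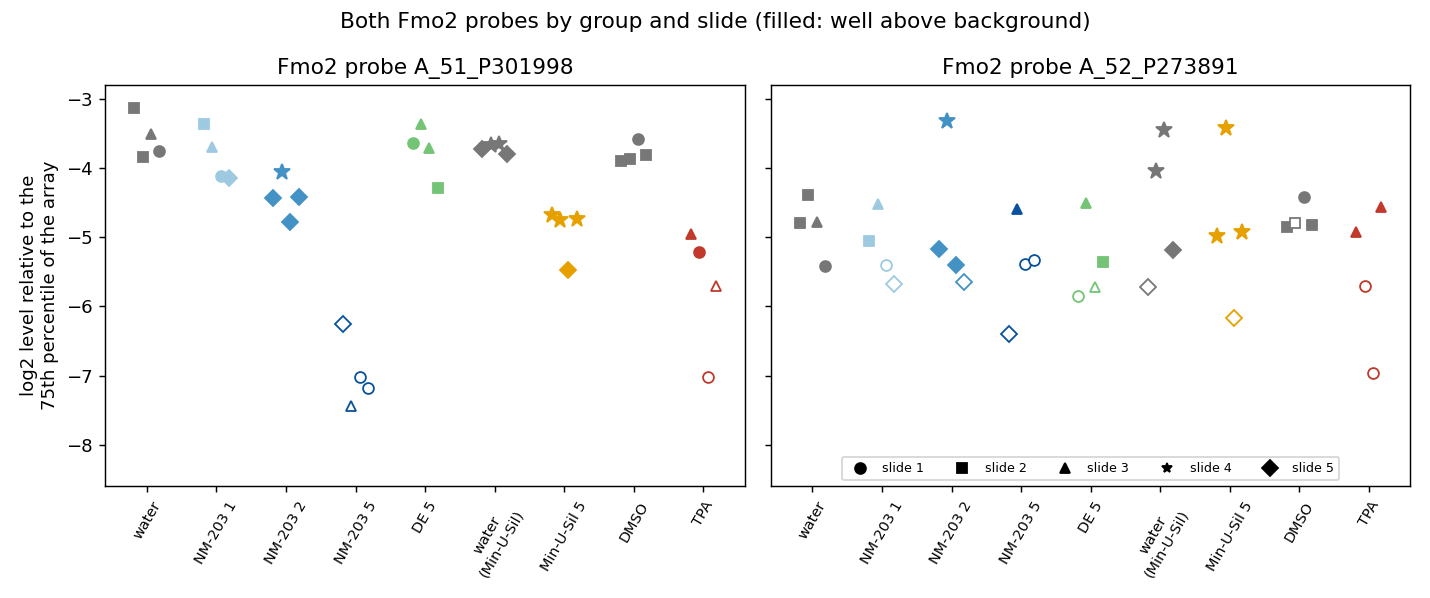
Level of the 2 Fmo2 probes as log2 relative to the 75th percentile of the array (y axis) by group (x axis), with marker shape for the slide and open markers where the probe was not well above background. The brighter probe (left) spreads from about -3.14 to -7.43 by group, while the highest points of the dimmer probe (right) are the stars of slide 4.

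Set side by side, the treatments differed in how many of the 4 genes they moved clear of the control. After TPA 3 genes lay above DMSO without overlap and 1 below it. Of all 32492 genes tested, 7.99% were above DMSO and 11.7% below it without overlap. After NM-203 at 5 µg/cm² all 4 lay below water, where 20.1% of genes did and 15.9% lay above. After Min-U-Sil 5 all 4 lay below its water, where 15.6% of genes did and 11.8% lay above. NM-203 at 2 µg/cm² had 2 genes below water (Chil1 and Fmo2), with 7.61% of all genes below and 14.7% above. At 1 µg/cm² only Chil1 was below, with 3.49% of all genes below and 2.16% above. In the authors' deposited values Chil1 overlapped water at 1 and at 2 µg/cm². DE had none of the 4, where 2.59% of genes lay above and 4.81% below water without overlap. These contrasts chose the genes, so the shares are a background only.

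**Figure D3:**
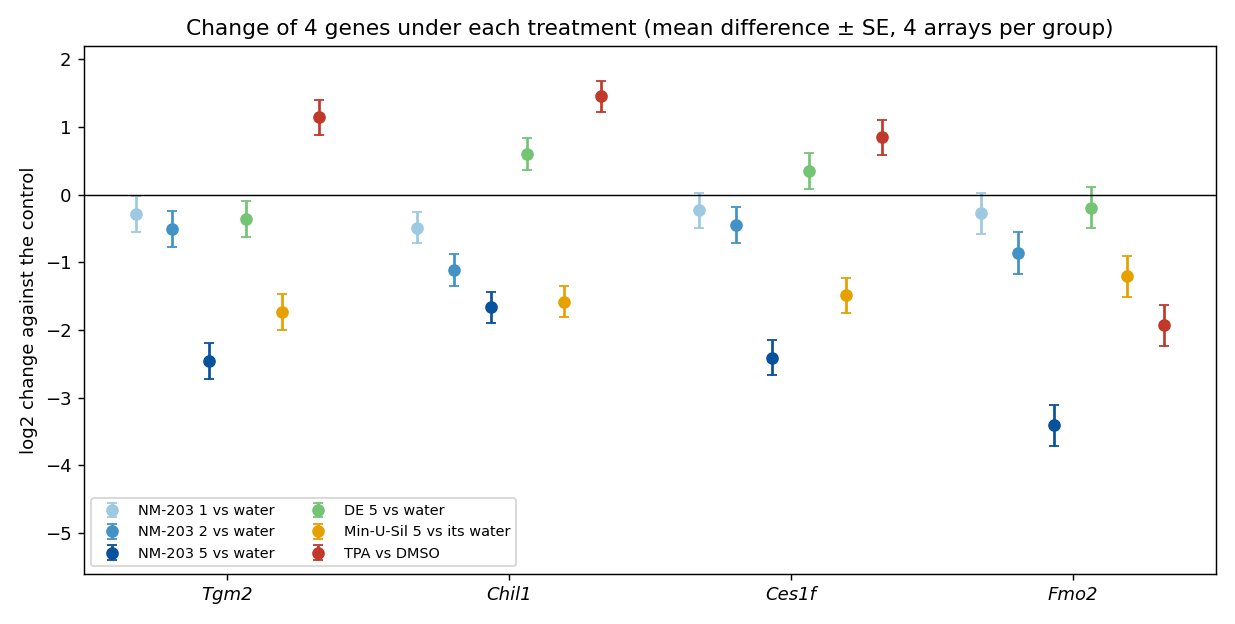
Change of each gene against its own control (y axis, log2, mean difference ± SE, 4 arrays per group) for the 6 treatments (colours) and 4 genes (x axis). TPA is above 0 for Tgm2 (1.14), Chil1 (1.45) and Ces1f (0.85) and below 0 for Fmo2 (-1.93), and NM-203 at 5 µg/cm² is below 0 for all 4, its Fmo2 point resting on arrays below background.

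The distance between the TPA change and a silica change was widest for NM-203 at 5 µg/cm². For Tgm2 it was 3.60 ± 0.37, for Ces1f 3.25 ± 0.37 and for Chil1 3.12 ± 0.33 on the log2 scale. Against Min-U-Sil 5 the same distances were 2.88 for Tgm2, 3.03 for Chil1 and 2.34 for Ces1f. Against DE they were 1.50 for Tgm2, 0.85 for Chil1 and 0.50 ± 0.37 for Ces1f, so the 2 materials given at 5 µg/cm² stood at opposite ends for Chil1 and Ces1f. At that shared dose NM-203 minus DE was -2.10 ± 0.26 for Tgm2 (4.30-fold lower), and the Chil1 difference was -2.27 ± 0.23 (4.83-fold). For Ces1f the NM-203 level was 6.76-fold below that of DE, and for Fmo2 at least 2.75-fold below it. The materials were matched in mass per area only.

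DMSO and the water control of NM-203 overlapped for all 4 genes. DMSO minus water was -0.42 ± 0.26 for Tgm2, -0.16 ± 0.23 for Chil1, -0.26 ± 0.26 for Ces1f and -0.23 ± 0.30 for Fmo2. For Ces1f, however, the water control of Min-U-Sil 5 (-1.92 to -1.30) lay above DMSO (-2.85 to -2.15) without overlap. In the order of group means of Tgm2, TPA stood alone at the top (-2.66 ± 0.11, SD, n = 4) and NM-203 at 5 µg/cm² (-5.85 ± 0.94) and Min-U-Sil 5 (-5.31 ± 0.22) at the bottom, overlapping each other. The 6 groups between them overlapped their neighbours. For Chil1 the order ran from TPA (-0.71 ± 0.22, SD, n = 4) and DE (-1.40 ± 0.55), which overlapped, down to NM-203 at 5 µg/cm² (-3.67 ± 0.28) and Min-U-Sil 5 (-3.76 ± 0.27). For Ces1f the water control of Min-U-Sil 5 (-1.65 ± 0.26, SD, n = 4) and TPA (-1.71 ± 0.30) shared the top, and NM-203 at 5 µg/cm² (-4.71 ± 0.83) was alone at the bottom.

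Within slides, the probe standing for each gene kept its direction for TPA, NM-203 at 5 µg/cm² and Min-U-Sil 5 where a slide held both groups. The dimmer Fmo2 probe did not for NM-203 at 5 µg/cm² minus water. It gave 0.05 on slide 1 and 0.19 on slide 3, against -0.58 over all arrays of the 2 groups. On slide 1, with 2 TPA arrays and 1 DMSO array, TPA minus DMSO was 1.23 for Tgm2, 1.52 for Chil1, 0.84 for Ces1f and -2.54 for Fmo2. The other 3 DMSO arrays were on slide 2, without TPA, and the other 2 TPA arrays on slide 3, without DMSO. The TPA comparison was therefore largely between slides, and its within-slide values rest on a single DMSO array. NM-203 at 5 µg/cm² minus water was -2.61 on slide 1 and -1.82 on slide 3 for Tgm2, and -1.56 and -3.20 for Ces1f. For Min-U-Sil 5, slide 4 and slide 5 gave -1.55 and -2.09 for Tgm2, -1.48 and -1.51 for Chil1, -1.33 and -1.62 for Ces1f and -1.06 and -1.71 for Fmo2. The slide 5 values leave out the arrays of slide 4. NM-203 at 2 µg/cm² shared no slide and no scan day with its water control, so its values cannot be told apart from the slide there.

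Genes on the TPA side and off the silica side at once were few on the array. Above DMSO without overlap, and below water without overlap for both NM-203 at 5 µg/cm² and Min-U-Sil 5, lay 69 of 32492 genes (0.212%), 58 of them with a symbol. The mirror pattern, below DMSO and above both waters, held 76 genes (0.234%). By contrast 1294 genes (3.98%) were above in all 3 comparisons and 1787 (5.5%), Fmo2 among them, below in all 3. Within the 58, ranked by the distance between the TPA change and the mean of the silica changes, Tgm2 led at 3.24, followed by Chil1 at 3.08 and Ces1f at 2.80. The fourth gene, Smoc2, which encodes a secreted matrix-associated calcium-binding protein and was named after its values were seen, came next at 2.72, so there was no gap behind Ces1f. Of the 58, 3 were also below water without overlap at 2 µg/cm² of NM-203, against 7.61% of all genes tested.

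**Figure D4:**
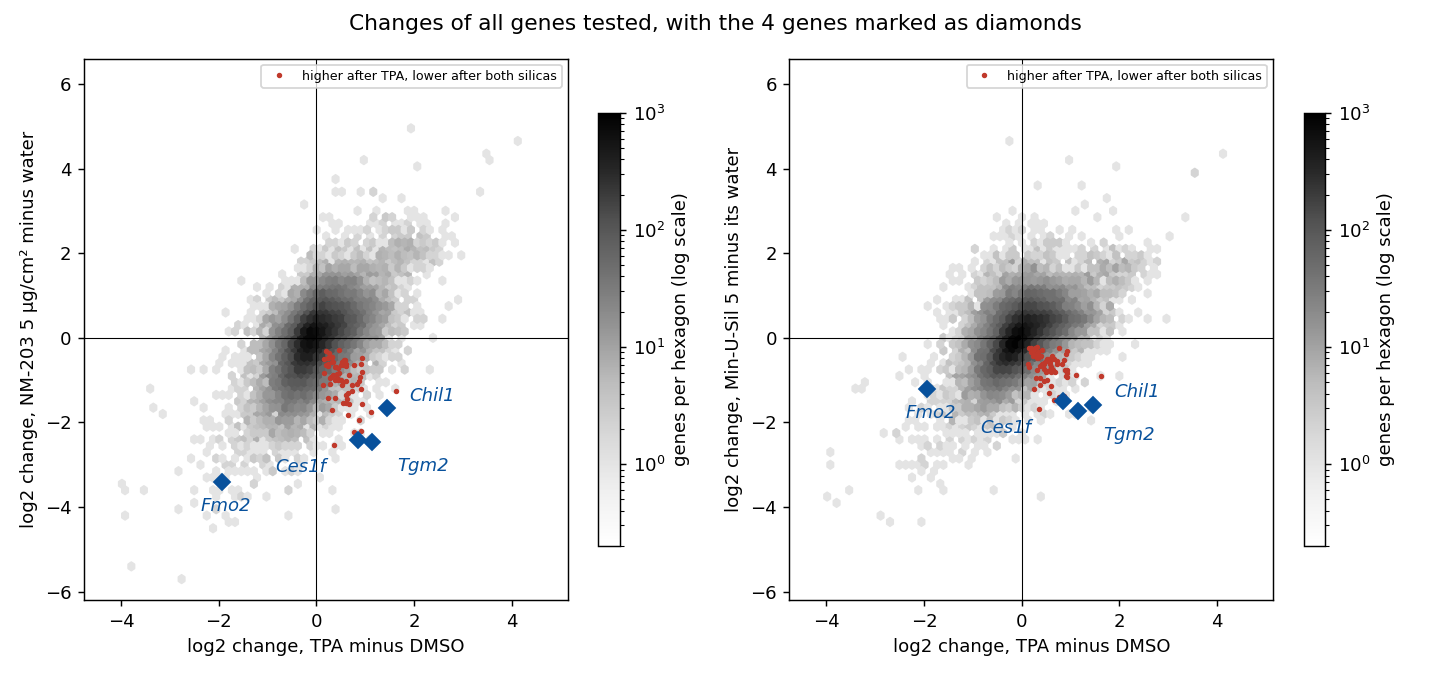
Change after TPA (x axis, log2) against change after NM-203 at 5 µg/cm² (left) and Min-U-Sil 5 (right; y axes, log2) for 32492 genes, shaded by number per hexagon on a log scale; red points are the 69 genes above DMSO and below both waters without overlap, and diamonds mark the 4 genes. Tgm2, Chil1 and Ces1f lie at the lower right edge of the cloud, and Fmo2 lies at its lower left, where its position on the NM-203 axis is only a bound (at least 3.14-fold lower) because no array of that group was well above background.

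Single changes of these genes were not the largest on the array. After TPA, Chil1 ranked 380 from the top, Tgm2 789 and Ces1f 1603 of 32492. The Fmo2 rank after TPA is not given, since only 2 of its 4 TPA arrays were well above background. Ranks after NM-203 at 5 µg/cm² are not given, since Fmo2 has only a bound there and Tgm2 and Ces1f were partly below background. After Min-U-Sil 5 the ranks from the bottom were 194 for Tgm2, 278 for Chil1, 341 for Ces1f and 659 for Fmo2. The ranking includes genes with signal near background.

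Across the 9 group means Tgm2 correlated with Ces1f at r = 0.90 and with Chil1 at r = 0.88, and Chil1 with Ces1f at r = 0.80. With group means removed, the same pairs gave -0.26, 0.01 and 0.37 over the 36 arrays, so arrays that were high for one gene within a group were not in general high for another. Fmo2 correlated with Tgm2, Chil1 and Ces1f at 0.54, 0.32 and 0.68 over group means. The group means share the treatments that chose the genes.

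The genes whose 9 group means were most like those of each gene were taken among 8019 genes with a spread of at least 1 log2 unit between group means. For Tgm2 they were Gprc5b (r = 0.984), the cartilage matrix protein gene Comp (r = 0.980), Enpp3, the serine protease gene Htra3 and the Wnt ligand gene Wnt4 (r = 0.974). Comp changed by 0.55 after TPA, -1.54 after NM-203 at 5 µg/cm² and -1.31 after Min-U-Sil 5. For Chil1 they were Olfr1428 (r = 0.952), C530044C16Rik, the NF-kB-inducing kinase gene Map3k14, the complement protease gene C1rb and the Fc receptor gene Fcgr4 (r = 0.929). Fcgr4 changed by 1.09 after TPA and -1.35 after NM-203 at 5 µg/cm², with -0.25 after Min-U-Sil 5.

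For Ces1f the nearest were the integrin subunit gene Itgb4 (r = 0.977), the tissue plasminogen activator gene Plat (r = 0.968), Peli2, the thrombospondin gene Thbs2 and the lipoprotein-associated phospholipase gene Pla2g7 (r = 0.958). Pla2g7 changed by 0.68 after TPA, -1.57 after NM-203 at 5 µg/cm² and -0.80 after Min-U-Sil 5. For Fmo2 they were Zfp185 (r = 0.977), the keratin gene Krt8 (r = 0.976), 1700003F12Rik, the fibroblast growth factor receptor gene Fgfr2 and Grifin (r = 0.968). Zfp185 changed by -1.71 after TPA and -1.34 after Min-U-Sil 5, and was at least 2.64-fold lower after NM-203 at 5 µg/cm². The neighbours were picked by these same group means, so the directions they share with their gene are built in, and some TPA changes were small, with 0.14 for Peli2, 0.16 for Plat and 0.17 for C1rb.

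The relatives and partners of the 4 genes were tested with limma over all 32492 genes with Benjamini-Hochberg adjustment. Over all genes 11.7% passed after TPA (4.89% higher and 6.78% lower), 33.1% after NM-203 at 5 µg/cm² (14% and 19.1%) and 25.6% after Min-U-Sil 5 (11.6% and 13.9%). After NM-203 at 2 µg/cm² 25% passed (16.2% and 8.85%), after DE 1.01% (0.557% and 0.449%) and after 1 µg/cm² 0.0862% (0.0431% in each direction). The median change over all genes was -0.04 after TPA, 0.01 after NM-203 at 5 µg/cm² and 0.04 after Min-U-Sil 5.

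Of the other transglutaminases 4 were tested (Tgm3, Tgm5, Tgm6 and Tgm7), and none passed after TPA or Min-U-Sil 5. The epidermal transglutaminase gene Tgm5 was at least 1.08-fold lower after NM-203 at 5 µg/cm², where no array was well above background. Only 2 of its 4 water arrays were. Its limma adjusted p of 0.000769 came from the measured signal, below background after treatment, and not from this bound. Fibronectin, integrins and other partners of transglutaminase 2 made up a list of 10 genes. After NM-203 at 5 µg/cm² 6 of 10 fell and none rose, with a list median of -0.52, and after Min-U-Sil 5 6 of 10 fell, with a median of -0.37. After TPA 1 fell and 9 did not pass, with a median of -0.04, the same as all genes.

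Among these partners the integrin subunit gene Itgb3 fell in all 3, with changes of -0.53 ± 0.14 after TPA (limma adjusted p = 0.0126), -1.62 ± 0.14 after NM-203 at 5 µg/cm² (adjusted p = 2.05e-10) and -1.04 ± 0.14 after Min-U-Sil 5. The endocytic receptor gene Lrp1 fell after NM-203 at 5 µg/cm² (-1.68 ± 0.26) and after Min-U-Sil 5 (-1.18 ± 0.26), and its change after TPA was -0.63 ± 0.26 (adjusted p = 0.117). The adhesion receptor gene Adgrg1 fell after the same silicas (-1.43 ± 0.20 and -0.77 ± 0.20) and gave 0.14 ± 0.20 after TPA (adjusted p = 0.748). Fibronectin, Fn1, fell after NM-203 (-0.45 ± 0.13, adjusted p = 0.0077) and after Min-U-Sil 5 (-0.39 ± 0.13). Its TPA change was 0.08 ± 0.13 (adjusted p = 0.781). Errors are SE with n = 4 per group.

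Retinoid handling and target genes, listed because retinoic acid induces Tgm2, fell more often than they rose. Of 17 tested, 9 fell after NM-203 at 5 µg/cm² (median -0.58), 8 after Min-U-Sil 5 (median -0.36) and 5 after TPA, where 1 rose (median -0.13). Rdh10, the retinol dehydrogenase of retinoic acid synthesis, was the one that rose, by 0.61 ± 0.13 after TPA (limma adjusted p = 0.00125). It fell after NM-203 at 5 µg/cm² (-0.67 ± 0.13, adjusted p = 8.96e-05) and after Min-U-Sil 5 (-0.44 ± 0.13, adjusted p = 0.0103). Rdh10 is also among the 58 genes above DMSO and below both waters without overlap. The retinoid-responsive chemerin gene Rarres2 fell in each, with changes of -1.25 ± 0.18 after TPA, -2.31 ± 0.18 after NM-203 at 5 µg/cm² and -1.50 ± 0.18 after Min-U-Sil 5. The retinaldehyde reductase gene Dhrs3 fell too, with -0.98, -0.97 and -1.01 (each ± 0.12), as did the retinoic acid hydroxylase gene Cyp26b1, with -0.88, -1.13 and -0.98 (each ± 0.14; SE, n = 4 per group).

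In the chitinase family 7 genes besides Chil1 were tested. Chitotriosidase, Chit1, which does cut chitin, rose after TPA by 1.15 ± 0.26 (limma adjusted p = 0.00226), and also after NM-203 at 5 µg/cm² by 1.82 ± 0.26 (adjusted p = 9.73e-07) and after Min-U-Sil 5 by 0.86 ± 0.26. It went the same way as Chil1 after TPA and the opposite way after silica. The lysosomal chitobiase gene Ctbs fell 2.15-fold after NM-203 at 5 µg/cm² and also after Min-U-Sil 5 (-0.84 ± 0.14), and gave -0.19 ± 0.14 after TPA (adjusted p = 0.471). The other 5 did not pass in these 3 comparisons. Chil3, a chitinase-like relative, gave 0.08 ± 0.15 after TPA and 0.26 ± 0.15 after NM-203 at 5 µg/cm² (adjusted p = 0.813 and 0.205; SE, n = 4 per group).

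Of 6 genes for receptors and binding partners of the Chil1 protein, 2 fell after TPA. The pattern receptor gene Ager changed by -0.40 ± 0.12 there and Tmem219 by -0.29 ± 0.09 (limma adjusted p = 0.0241 and 0.0288). After NM-203 at 5 µg/cm² 1 rose (Tmem219, 0.24 ± 0.09) and 1 fell (the proteoglycan gene Sdc1, -0.54 ± 0.11), and after Min-U-Sil 5 only Sdc1 fell (-0.47 ± 0.11). Each of these was smaller than the Chil1 change in the same comparison. The list medians were -0.06, -0.26 and -0.16 (SE, n = 4 per group).

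The carboxylesterases moved in both directions. Of 12 tested besides Ces1f, 1 rose and 4 fell after TPA, 2 rose and 4 fell after NM-203 at 5 µg/cm², and 1 rose and 4 fell after Min-U-Sil 5. The list medians were 0.15, -0.37 and 0.13. Ces1d, a lipid-mobilising hydrolase, fell in all 3, with changes of -1.75 ± 0.30 after TPA (limma adjusted p = 0.00012), -3.66 ± 0.30 after NM-203 at 5 µg/cm² (adjusted p = 5.78e-11, 2 of 4 arrays well above background) and -3.14 ± 0.30 after Min-U-Sil 5.

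Ces1a and Ces2e fell as well, with changes of -1.74, -3.02 and -2.44 (each ± 0.21) for Ces1a and -1.25, -1.81 and -1.37 (each ± 0.17) for Ces2e in the same order. Ces1g rose in all 3, by 1.39 ± 0.20 after TPA (limma adjusted p = 6.08e-06), 0.62 ± 0.20 after NM-203 at 5 µg/cm² (adjusted p = 0.0131) and 0.81 ± 0.20 after Min-U-Sil 5. The relatives that passed in all 3 comparisons (Ces1d, Ces1a, Ces2e, Ces2g and Ces1g) kept one direction across them. Ces1f had opposite ones, but it was chosen by these contrasts. One direction was also the commoner pattern over all genes. Without overlap, 3.98% were above and 5.5% below in all 3, against 0.212% and 0.234% with TPA opposite to both silicas. Carboxylesterase genes lie in clusters of similar sequence, so probes of close relatives can share signal (SE, n = 4 per group).

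Of 14 genes for other lipid ester hydrolases and fatty acid use, 2 fell after TPA, and both also fell after the silicas. The transcriptional coactivator gene Ppargc1a changed by -1.46 ± 0.15 after TPA (limma adjusted p = 5.68e-08), -1.85 ± 0.15 after NM-203 at 5 µg/cm² and -1.33 ± 0.15 after Min-U-Sil 5. The fatty acid receptor gene Ppara changed by -0.51, -1.07 and -0.88 (each ± 0.17). The lysosomal acid lipase gene Lipa fell after NM-203 at 5 µg/cm² (-0.74 ± 0.10) and after Min-U-Sil 5 (-0.49 ± 0.10), and gave -0.17 ± 0.10 after TPA (adjusted p = 0.336). Abhd5, the coactivator of adipose triglyceride lipase, rose after both silicas, by 0.32 and 0.29 (each ± 0.09; SE, n = 4 per group).

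Of the flavin monooxygenases, Fmo4 and Fmo5 were also tested. Neither passed after TPA or Min-U-Sil 5, and Fmo5 fell after NM-203 at 5 µg/cm² (-0.60 ± 0.14, limma adjusted p = 0.00125). Among 23 other drug-metabolising enzymes and their regulators 2 fell and none rose after TPA. After NM-203 at 5 µg/cm² 8 fell and 1 rose (median -0.29), and after Min-U-Sil 5 5 fell and 1 rose (median -0.23).

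The alcohol and retinol dehydrogenase gene Adh1 fell most among the genes named from that list, with changes of -1.92 ± 0.22 after TPA (limma adjusted p = 1.93e-07), -3.04 ± 0.22 after NM-203 at 5 µg/cm² (adjusted p = 4.58e-12) and -1.73 ± 0.22 after Min-U-Sil 5. It shares with Fmo2 the direction in all 3 comparisons. The aryl hydrocarbon receptor gene Ahr changed by -0.57, -0.66 and -0.35 (each ± 0.12). The aldehyde oxidase gene Aox1 fell after NM-203 (-1.69 ± 0.15) and after Min-U-Sil 5 (-0.46 ± 0.15), while its TPA change was 0.31 ± 0.15 (adjusted p = 0.202; SE, n = 4 per group). Like Rdh10, Aox1 is among the 58 genes above DMSO and below both waters without overlap, although its TPA change did not pass limma.

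**Figure D5:**
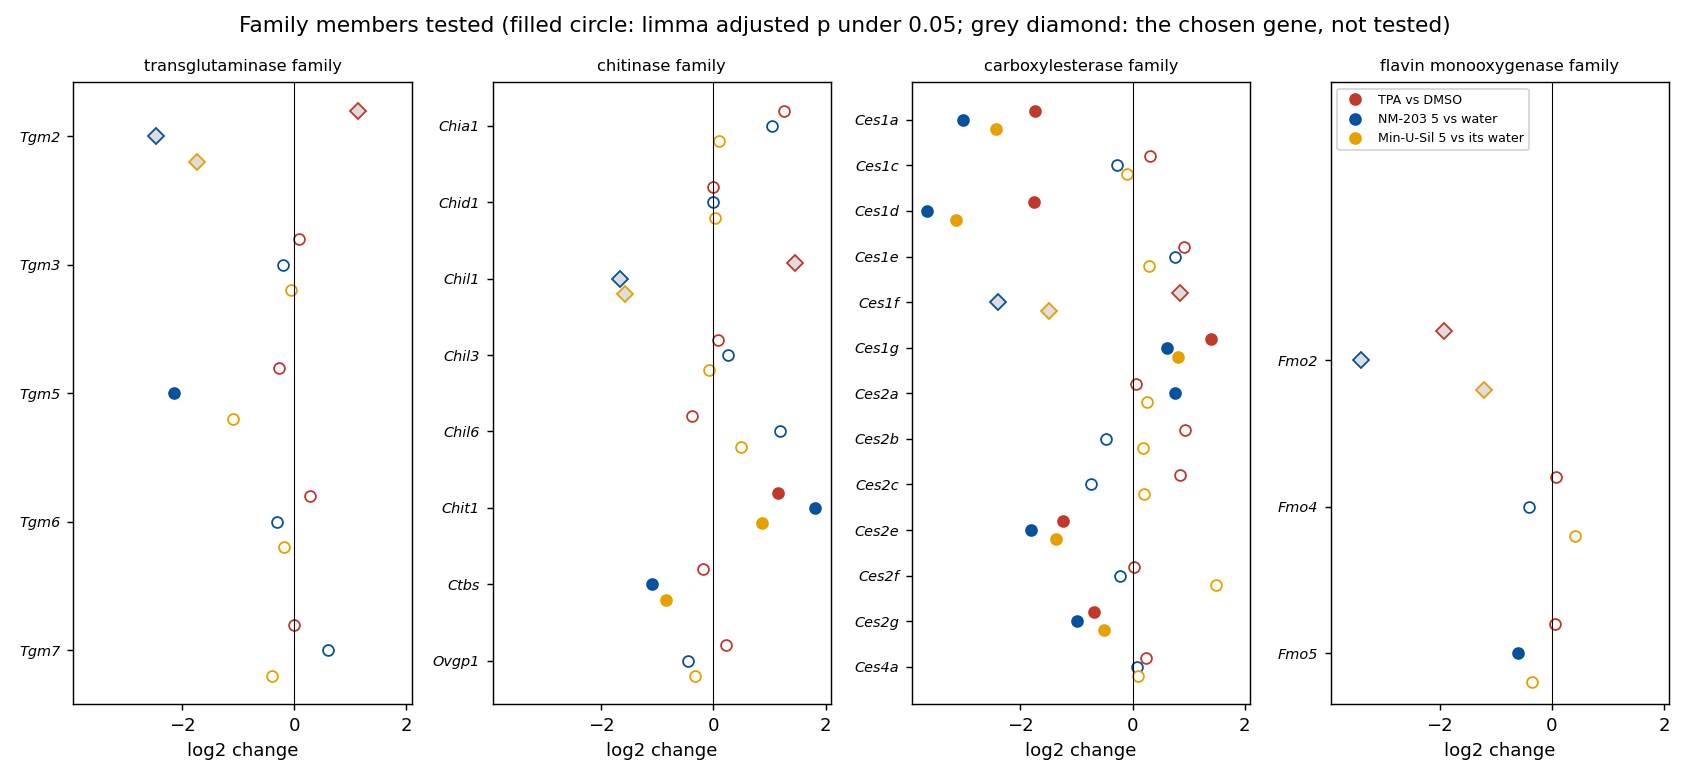
Change (x axis, log2) of tested family members (y axis) after TPA, NM-203 at 5 µg/cm² and Min-U-Sil 5 (colours) in 4 gene families; filled circles passed limma at an adjusted p under 0.05, open circles did not, and grey diamonds are the chosen genes, which were not tested. Ces1a, Ces1d, Ces2e and Ces2g are filled to the left of 0 and Ces1g to the right in all 3 comparisons, whereas the diamonds of Tgm2, Chil1 and Ces1f stand on both sides of 0.

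The landmark genes of the phorbol ester response that are named here kept one sign after TPA and both silicas. Not all of them passed in each, and some other genes of the list changed sign. Of 16 tested, 4 rose, 3 fell and 9 did not pass after TPA. After each of NM-203 at 5 µg/cm² and Min-U-Sil 5, 8 rose, 5 fell and 3 did not pass. The proliferin gene Prl2c3 rose by 4.13, 4.59 and 4.27 (each ± 0.20), and Il1rl1, the receptor of interleukin 33, by 2.24, 2.72 and 2.50 (each ± 0.15; limma adjusted p = 1.47e-11, 3.4e-14 and 6.48e-13). Both also rose after DE, Prl2c3 by 0.94 ± 0.20 (adjusted p = 0.0123) and Il1rl1 by 0.90 ± 0.15 (adjusted p = 0.0018). In the order TPA, NM-203 at 5 µg/cm² and Min-U-Sil 5, Fosl1 changed by 0.66, 2.34 and 2.22, and Junb by 0.60, 0.94 and 0.57. Fos, an immediate early gene, fell after TPA (-1.89 ± 0.24). It gave -0.31 ± 0.24 after NM-203 at 5 µg/cm² (adjusted p = 0.376) and -0.18 after Min-U-Sil 5. The gelatinase gene Mmp9 fell in all 3, with -0.64, -3.12 and -2.45 (each ± 0.19; SE, n = 4 per group). Proliferin genes are near-identical copies, so the Prl2c3 signal can include its relatives.

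Marker genes checked the cell type and moved with some of these results. All 8 fibroblast markers were well above background on all 36 arrays. Of them 2 fell after TPA, 5 after NM-203 at 5 µg/cm² (median -1.05) and 5 after Min-U-Sil 5 (median -0.75), with Col1a1 at -0.50, -1.13 and -1.21 (each ± 0.09). As Tgm2 and Chil1 are also made by macrophages, macrophage markers were set beside them. Of 8, Ptprc was well above background on 0 arrays and Adgre1 on 7 of 36, while Cd68, Csf1r, Cd14, Aif1, Lyz2 and Itgam were on all 36. Summed over the 8 markers, as percent of the 75th percentile, the level was 1984 to 2850 in water, 1603 to 2136 in NM-203 at 5 µg/cm², 1443 to 2139 and 1326 to 1695 in Min-U-Sil 5's water and Min-U-Sil 5, 2033 to 2492 in DMSO and 2232 to 2727 in TPA. Macrophage markers fell in 3 of 7 tested after NM-203 at 5 µg/cm², 2 after Min-U-Sil 5 and 2 after TPA (Aif1 -0.68 ± 0.17 and Lyz2 -0.55 ± 0.14; SE, n = 4 per group). The part of cell makeup in the Tgm2 and Chil1 differences was not tested.

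Some markers of other cells were dim, and others were well above background throughout. For liver cells, which make many carboxylesterases and flavin monooxygenases, Ttr was well above background on 0 arrays, Hnf4a on 6, Cyp3a11 on 9 and Alb on 13 of 36. Serpina1a, of the same list, was well above background on all 4 arrays of every group. None of 3 liver markers tested passed after TPA or NM-203 at 5 µg/cm². After Min-U-Sil 5, 1 of the 3 rose, Alb (1.15 ± 0.43, limma adjusted p = 0.0487), which was well above background on 4 arrays there and on 2 of its water control. The summed level of the 6 liver markers was at most 33.6% of the 75th percentile in DMSO, 20.5% in TPA, 21.5% in water, 23.3% in NM-203 at 5 µg/cm², 37.9% in Min-U-Sil 5 and 35.9% in its water control. Adipoq, an adipocyte marker, was well above background on 0 arrays. Fabp4 was at least 2.82-fold higher after TPA (limma adjusted p = 1.1e-05) and rose after Min-U-Sil 5 as well (2.46-fold, limma adjusted p = 0.00193). The other 2 adipocyte markers tested, Plin1 and Cidec, did not pass in either comparison. They gave 0.76 and -0.56 after TPA and -0.01 and 0.29 after Min-U-Sil 5. Among the epithelial markers Epcam was well above background on 0 arrays. Krt8, the gene nearest to Fmo2 after Zfp185, fell after TPA (-0.83 ± 0.17), NM-203 at 5 µg/cm² (-1.66 ± 0.17) and Min-U-Sil 5 (-0.94 ± 0.17). Krt5 and Krt14 were well above background on all 4 arrays of every group and did not pass in these 3 comparisons. In the same order Krt5 gave 0.53, 0.26 and 0.49, and Krt14 gave 0.18, -0.16 and 0.15. Both rose after NM-203 at 2 µg/cm², by 1.42 and 0.56, a dose that shared no slide with its water control. Among the endothelial markers Tek was well above background on 0 arrays. Cdh5 was at least 2.38-fold lower after TPA (limma adjusted p = 0.000123), at least 2.97-fold lower after NM-203 at 5 µg/cm² and at least 3.95-fold lower after Min-U-Sil 5. Pecam1 and Vwf were well above background on all 4 arrays of every group. They changed by 0.43 and 0.37 after TPA, where neither passed and the list median was 0.39. After NM-203 at 5 µg/cm² they changed by -0.04 and -0.97, and after Min-U-Sil 5 by 0.43 and -0.22. The part of these cell types in the changes of the 4 genes was not tested.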

How the data were processed

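Total RNA of 36 cultures was labelled with Cy3 and hybridised to 1-colour Agilent mouse arrays, per the labels. Per the file headers and the submitters' processing notes, the authors read the scans with Agilent Feature Extraction 11.0.1.1, which gave an intensity per spot with background subtracted and spatial trends removed but no normalization between arrays. The deposited files also held other flags per spot (control, outlier, saturated, well above background), per the file headers. The deposited value table held log2 values that equalled the log2 processed intensity up to a constant per array (-0.06 to 0.06), centred on the median of each of 56745 probes. Its column medians ran from -0.25 to 0.27, and the scaling before that centring is not given in the sources used here. For 33 of 36 arrays the best-matching column was their own, and 3 Min-U-Sil 5 columns matched another Min-U-Sil 5 array, which leaves the group unaffected.

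For each array, log2 of the processed intensity was taken relative to its 75th percentile over the 59305 spots other than controls. Outlier spots (74 to 380 per array) were dropped and repeat spots of a probe averaged. The files name probes by accession, and 32994 of 56605 probes were named through the RefSeq genes of GRCm38.p6. The array design uses another build (mm9), so no gene coordinates from it are given. Probes above background, by the scanner flag, on 3 or more of the 4 arrays in some group were tested (40679 probes), and the brightest probe stood for a gene (32492 genes, 17868 with a symbol). The 9 group means were fitted with limma 3.58.1 (lmFit, eBayes), which left 27 residual degrees of freedom. R was version 4.3.3, and files were read by its package data.table, version 1.17.8. Calls are Benjamini-Hochberg adjusted p under 0.05, and the fit was tested on simulated data. Figures used Python 3.11.15 and matplotlib 3.10.9.

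The 4 genes and all gene lists were chosen with earlier results of these data known. A further gene of the lists is not reported here. The genes named were the 4 chosen ones, up to 6 genes per list that passed limma in any of the 6 comparisons (by size of the TPA change, then of the change after NM-203 at 5 µg/cm²), and the 5 nearest genes by correlation over 9 group means. A group with no array above background has only a bound, and its fold reads "at least": each dim array was set to the lowest signal that passed the flag there, or to its own signal if higher, before taking means. Alternatives changed background correction (normexp with offset 50 on the deposited median intensity, with quantile normalization), scaling, the filter, the probe rule, blocks, the groups fitted, the value table and each array in turn.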

Additional observations from a re-analysis of the deposited data

Results flagged for a closer look

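Within each group of 4 arrays the highest or lowest value was compared with its nearest neighbour as a share of the group's range, for 5 probes in 9 groups. Of these 45 sets 3 were past the limit, and chance alone flags about 1 in 20. Replicate 3 of DE was apart from its group for Chil1, at -0.59, and without it the Chil1 change after DE was 0.34 in place of 0.61. Replicate 3 of Min-U-Sil 5 was apart for the brighter Fmo2 probe, at -5.47, and without it the change was -1.02 in place of -1.20. Replicate 3 of DMSO was apart for the dimmer Fmo2 probe, at -4.42, which no result rests on.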

How the results depend on the processing

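The change of each of the 4 genes kept its sign under every alternative run, in all 6 comparisons, and 226 of 244 values stayed within the spread between replicates. With normexp and quantile normalization, Tgm2 gave 0.58 after TPA, -0.84 after NM-203 at 5 µg/cm² and -0.58 after Min-U-Sil 5. Chil1 gave 1.19, -0.94 and -0.94, Ces1f 0.51, -1.08 and -1.08, and Fmo2 -0.59, -0.72 and -0.43, with -0.28 at 2 µg/cm² of NM-203. The offset in that method adds a constant to every signal, which shrinks differences between dim ones. With the mean of both probes Fmo2 gave -0.45 at 2 µg/cm², -1.99 at 5 µg/cm² and -0.74 after Min-U-Sil 5. At 2 µg/cm² of NM-203 Fmo2 gave -1.22 with slide as a block, and Ces1f -1.10 against the other water control; the cause was not tested. Leaving out each array in turn gave changes of 1.06 to 1.24 (Tgm2), 1.39 to 1.56 (Chil1), 0.75 to 0.99 (Ces1f) and -2.19 to -1.50 (Fmo2) after TPA, and -2.74 to -2.03, -1.80 to -1.55, -2.65 to -2.06 and -3.65 to -3.25 after NM-203 at 5 µg/cm². The counts of genes called were less stable in the comparisons with few calls. Centred on the median of the genes tested, counts were 1747 after TPA, 1 and 5330 at 1 and 2 µg/cm² of NM-203 and 27 after DE, in place of 3792, 28, 8125 and 327; 55.6% of the TPA calls were then higher in place of 41.9%, and 77.8% of the DE calls in place of 55.4%, and the median change at 5 µg/cm² moved from 0.01 to 0.11. With no filter, 5 genes at 1 µg/cm² and 209 after DE were called, with the mean of probes 15 at 1 µg/cm², and 16 from the deposited value table. Slide as a block gave 100 at 1 µg/cm² and 2328 at 2 µg/cm², scan day as a block 1716 and the other water control 5061 at 2 µg/cm². With only the arrays of the 2 groups compared, limma called 0 genes at 1 µg/cm² (2673 at an unadjusted p under 0.05), 0 after DE (3102 unadjusted) and 2912 at 2 µg/cm². Leaving out each array in turn gave 2 to 101 calls at 1 µg/cm² (101 without water replicate 1, 2 without NM-203 replicate 2 or water replicate 3 or 4) and 87 to 367 after DE (87 without water replicate 3, 367 without water replicate 1). None of 191 calls of list genes changed sign under the 3 other scalings. Same-numbered samples did not deviate together in general, so the numbers were not taken as pairs. Outside Min-U-Sil 5 their correlations ran from -0.20 to 0.29, and at least 1 pair of every comparison was under 0.1. For TPA and DMSO all 4 were above 0 (0.01 to 0.24, mean 0.12 against -0.04 for other pairs). For Min-U-Sil 5, whose replicate numbers are uncertain, they ran from -0.60 to 0.33. The replicate block gave 3733 calls after TPA and 10688 at 5 µg/cm² and changed no count by over 1.5 times. Signal over background limits the low Tgm2, Ces1f and Fmo2 levels at 5 µg/cm² and the low Fmo2 levels after TPA.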
